A study of Mus musculus with 27 samples.

Results

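The genes described here encode laminins and the other glycoproteins and proteoglycans of the extracellular matrix. They were a list of 39 gene symbols, looked up by name in a table of 40129 genes. All 39 were found, and all 39 were among the 27137 genes that averaged 1 normalized read or more and were tested. The list held 10 laminin chains, 4 nidogens and basement membrane proteoglycans, 7 matricellular glycoproteins with fibronectin, 5 genes for small leucine-rich proteoglycans and versican, 4 fibulins, 4 EMILINs and multimerins, and 5 genes for elastin, fibrillins and latent TGF-beta binding proteins.

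The data were RNA-seq libraries of whole retinas from wild-type C57BL/6J mice of both sexes (C57BL/6 in the sample labels). In the oxygen-induced retinopathy (OIR) model, pups are kept in high oxygen, in which the capillaries of the central retina regress, and are then returned to room air, in which the avascular retina lacks oxygen and vessels sprout towards the vitreous. Control mice (nOIR) stayed in room air. Retinas were taken at postnatal day 14 (p14) or 17 (p17), after the blood had been washed out by perfusion, and each library came from 1 mouse, with 1 or both retinas. Controls numbered 6 mice at each age, and OIR mice 6 at p14 and 8 at p17. Mouse S4 of nOIR p14, which the study set aside for its lens transcripts, was left out. The study lists fewer litters than mice in every group, and the litter of single mice was not known. Every test took the mice as independent, so p-values make no allowance for likeness within a litter.

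A basement membrane is a thin sheet on which endothelial cells, pericytes and glia rest. Laminins, trimers of an alpha, a beta and a gamma chain, polymerize into its primary network, which nidogens and the heparan sulfate proteoglycan perlecan tie to type IV collagen. Fibronectin, periostin, thrombospondins and SPARC lie in the matrix around vessels and signal to cells during growth and repair, small leucine-rich proteoglycans bind fibrillar collagens, and fibulins, EMILINs and fibrillins build elastic fibers.

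Levels are given as normalized reads, that is reads per gene divided by 1 scaling factor per mouse. Recovered library totals ran from 17029536 to 33593428 reads, with a median of 30024568. The summed level of 12 retinal neuron markers lay between 754448 and 1557300 normalized reads in all mice, which checks the tissue label. Marker transcripts of other cells differed between groups. At p17, the summed level of 10 mural cell markers was 11883 to 17798 (median 15513) in OIR and 3374 to 4239 (median 3905) in nOIR, with 10 of 10 markers higher in OIR. The endothelial sum was 1.64 times, the fibroblast sum 2.7 times and the macrophage and microglia sum 2.67 times as high in OIR p17 as in nOIR p17 by medians, with 8 of 10, 5 of 9 tested and 6 of 8 markers higher. At p14 the corresponding ratios were 0.998 for mural cells, 0.861 for endothelium, 1.55 for fibroblasts, 1.2 for macrophages and microglia, 0.821 for astrocytes and Mueller glia and 0.805 for retinal neurons, and at p17 the last 2 stood at 1.01 and 0.843. Of the single markers at p14, 3 of 10 mural cell genes were called higher and 3 lower, 1 of 10 endothelial genes higher and 1 lower, 2 of 9 tested fibroblast genes higher and 2 of 8 macrophage and microglia genes higher. In the same contrast 3 of 10 glial markers were higher and 5 lower, and 5 of 12 neuron markers lower. At p17, 4 of 10 glial markers were higher and 4 lower, and 5 of 12 neuron markers lower. Lens transcripts varied over mice of every group, from 148 to 36816 summed normalized reads. OIR medians were 4.31 times the control at p14 and 3.3 times at p17. Mouse S5 of nOIR p14, which was kept, had a lens sum of 21068, and mouse S4, which was left out, 19627. The 9 lens markers and 10 pigment epithelium markers were not called at either age. Defining markers at 0 in all mice of a group were Twist2 in nOIR p17, Kera in nOIR p14 and OIR p14, and Krt5 in nOIR p17. The fibroblast list included the collagen genes Col1a1, Col1a2 and Col3a1, and shared Pdgfra with the glial list. In whole retina, fewer cells of a type and less RNA per cell cannot be told apart, and the part of any of these cells in the results below was not tested.

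**Figure D1:**
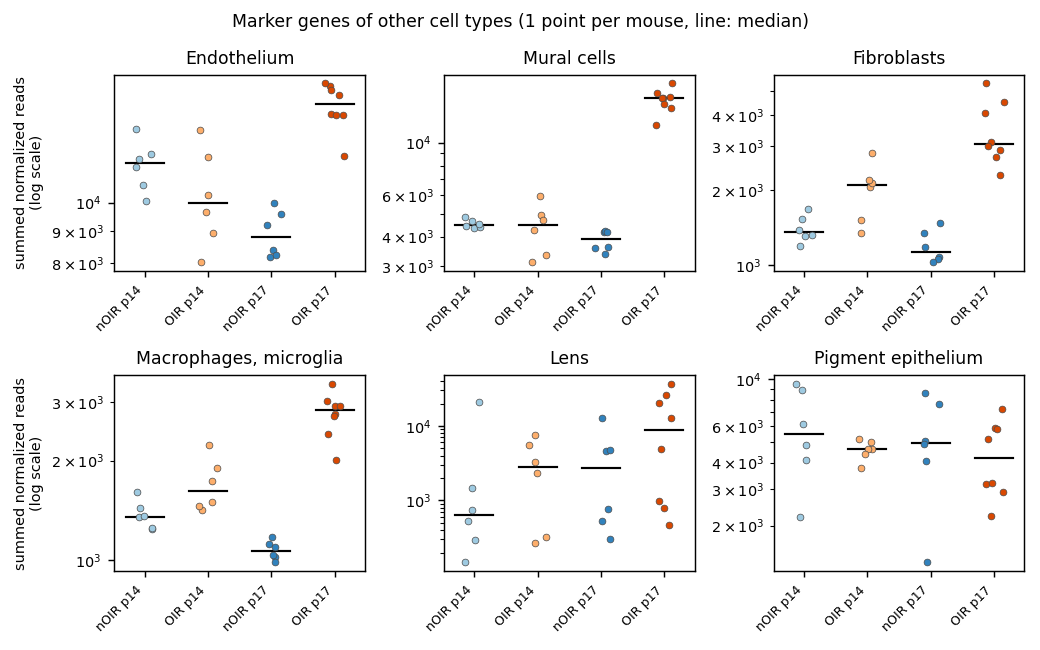
Summed normalized reads of marker genes of 6 cell types (log scale), 1 point per mouse and a line at the group median, for the 4 groups. Mural cell sums of OIR p17 mice (11883 to 17798) all lay above those of nOIR p17 mice (3374 to 4239), while lens sums spread widely in every group.

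In OIR at p17, 18 of the 39 genes were higher than in nOIR p17, 2 were lower and 19 were not called (limma, adjusted p below 0.05). Across all 27137 genes tested, 7.39% were higher and 5.12% lower by the same rule. By the stricter rule for a differentially expressed gene (DEG), which adds a log2 fold change beyond 2, 9 genes were upregulated (Lama4, Nid1, Nid2, Hspg2, Postn, Bgn, Fmod, Emilin2 and Mmrn1) and 0 downregulated (also 0 with edgeR and DESeq2), against 1.9% and 0.173% of all genes. The call of Mmrn1, at very low levels, did not hold in most alternative fits. With 1 mouse left out, 6 to 10 genes met the DEG rule, and Lama4, Fmod and Emilin2 missed it in some of these fits. In 14 genes every OIR p17 mouse lay above every nOIR p17 mouse, and in 1 gene every OIR mouse lay below, where all genes gave 3.9% and 1.98%. The 39 genes had a median log2 fold change of 0.92, and all genes together a median of -0.02.

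At p14, by contrast, 6 genes were higher in OIR (Nid2, Hspg2, Fn1, Postn, Emilin1 and Emilin2), 4 were lower (Sparcl1, Fbln5, Efemp1 and Eln) and 29 were not called. Of all genes, 3.18% were higher and 2.91% lower. A single gene, Emilin2, was upregulated by the DEG rule, which 0.744% of all genes met, and 0.14% of all genes were downregulated by it. Groups did not overlap for 3 higher genes (Hspg2, Fn1 and Emilin2) and for 3 lower genes (Fbln5, Efemp1 and Eln), compared with 1.91% and 1.86% of all genes. The median log2 fold change was 0.41, against 0.02 over all genes.

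By limma, all 6 genes higher at p14 were also higher at p17, and a further 12 were called higher at p17 alone. Over the other settings, 5 to 12 genes were called higher at p14, the 12 with DESeq2, and 16 to 19 at p17. How many genes are called at p17 alone therefore depends on the setting. Since a call at 1 age only does not show that the effects differ, the difference between the OIR effects at both ages was tested in the same fit. It was positive at adjusted p below 0.05 for 11 genes (Lama4, Lamb1, Nid1, Nid2, Hspg2, Postn, Thbs2, Bgn, Fbln5, Emilin1 and Mmrn2) and negative for 0, against 1.43% and 0.147% of all genes. At an unadjusted p below 0.05 limma gave 18 positive and 1 negative, against 6.31% and 4.35% of all genes, and edgeR and DESeq2 also called 0 negative. The 11 became 6 without OIR p14 mouse S2 and 7 without nOIR p14 mouse S6, nOIR p17 mouse S1 or OIR p14 mouse S3. Lama4, Nid1, Postn, Thbs2 and Bgn kept the call in all 26 fits without 1 mouse and under all 10 other settings.

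**Figure D2:**
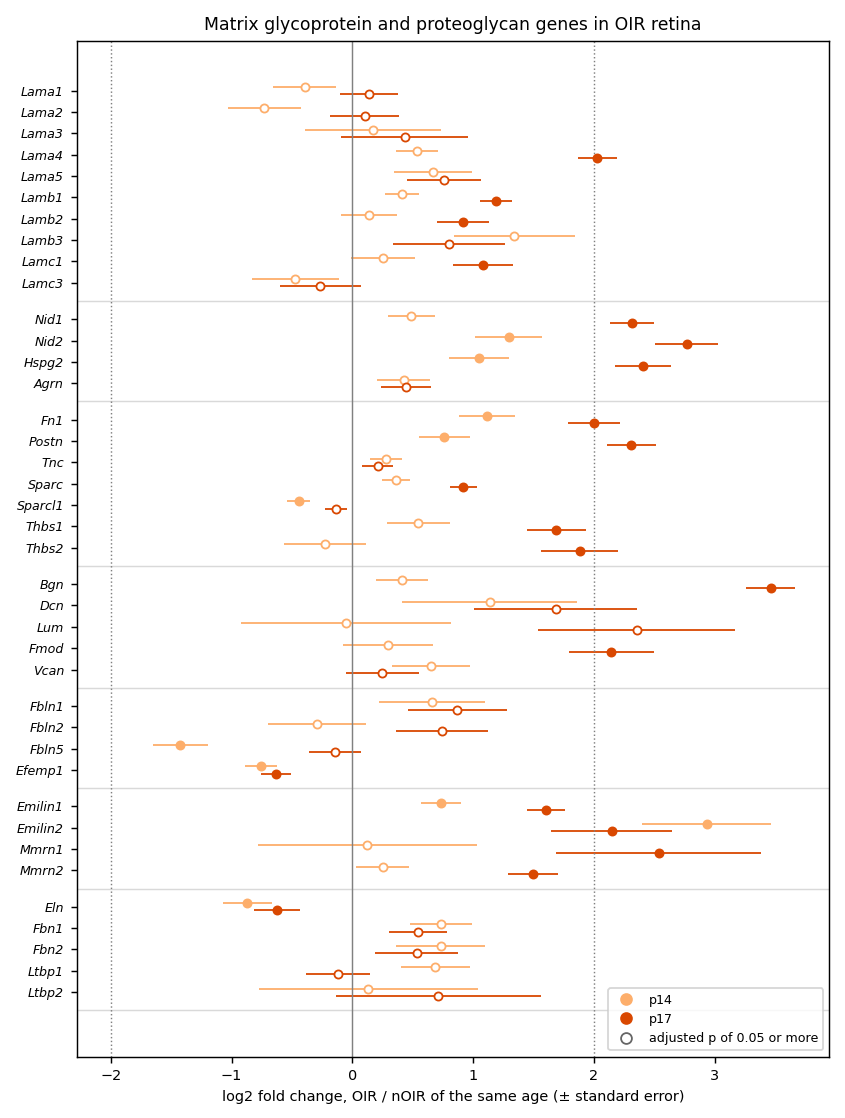
Log2 fold change of OIR over nOIR at p14 (light) and p17 (dark) for the 39 genes, ordered by role, with bars of ± 1 standard error, filled points at adjusted p below 0.05 (limma) and dotted lines at the DEG threshold of 2. Filled points at p17 lie mostly to the right, with Bgn farthest at 3.47, and Efemp1 and Eln lie left of 0 at both ages.

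Promoter sequence is shown for 4 of the 9 genes that met the DEG rule at p17, picked from different roles. Biglycan (Bgn) had the largest fold change, Nid1 and Hspg2 encode linkers of the basement membrane, and Postn encodes a matricellular protein. Others, such as Nid2, are not shown. RefSeq (GRCm38.p6) gave an entry for 25 of the 39 genes. For 8 of them, Postn included, it lists more than 1 start, and the first listed was used here and in all motif counts. Each sequence is the 250 bases before that start on the + strand. Bgn lies at chrX:73483351-73483600, Nid1 at chr13:13437352-13437601, Hspg2 at chr4:137468553-137468802 and Postn at chr3:54359017-54359266. Capitals mark GCGTG, a core of the hypoxia response element, and GGGCGG, the GC box, on either strand, so CCGCCC is the GC box read on the other strand.
Bgn: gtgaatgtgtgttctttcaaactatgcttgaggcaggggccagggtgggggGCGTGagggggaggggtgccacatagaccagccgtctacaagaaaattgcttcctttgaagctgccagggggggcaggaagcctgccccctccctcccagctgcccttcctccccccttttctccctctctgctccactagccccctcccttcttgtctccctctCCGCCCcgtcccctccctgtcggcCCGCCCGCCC
Nid1: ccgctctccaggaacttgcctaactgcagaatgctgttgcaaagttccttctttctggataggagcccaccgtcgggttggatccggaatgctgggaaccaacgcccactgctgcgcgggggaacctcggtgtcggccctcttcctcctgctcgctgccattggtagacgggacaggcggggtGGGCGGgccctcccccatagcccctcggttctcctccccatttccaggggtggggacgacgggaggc
Hspg2: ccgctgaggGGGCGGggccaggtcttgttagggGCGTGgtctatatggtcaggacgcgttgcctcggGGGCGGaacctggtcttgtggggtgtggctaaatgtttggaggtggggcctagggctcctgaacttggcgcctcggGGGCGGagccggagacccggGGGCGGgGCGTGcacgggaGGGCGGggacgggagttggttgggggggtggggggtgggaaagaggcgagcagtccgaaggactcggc
Postn: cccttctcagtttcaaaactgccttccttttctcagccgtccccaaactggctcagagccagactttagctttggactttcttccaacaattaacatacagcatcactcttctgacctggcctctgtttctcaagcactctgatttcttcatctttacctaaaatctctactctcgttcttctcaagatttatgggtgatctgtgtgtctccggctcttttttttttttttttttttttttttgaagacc
The Hspg2 stretch held the hypoxia core 2 times and the GC box 5 times, the Bgn stretch 1 and 3 times, the Nid1 stretch 0 and 1 times, and the Postn stretch neither. The other listed start of Postn, with its 250 bases at chr3:54360857-54361106, held neither of them but had the TATA box TATAAA 1 time. Of the 25 genes, 10 held this hypoxia core and 13 the GC box, while 28.2% and 32.9% of 27025 genes with an entry did. The other hypoxia core, ACGTG, was found in 2 of the 25 and in 16.6% of all entries. The AP-1 motif TGANTCA was found in 1 and in 6.87%, and the TATA box TATAAA in 2 and in 13.0%. All motifs were searched on both strands, and matches to different motifs may overlap. A match is a description of the letters only.

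Of the laminin chains, 4 of 10 were higher in OIR p17 (Lama4, Lamb1, Lamb2 and Lamc1) and the other 6 were not called. Here and in the counts by role below, the shares of all genes to set beside them are 7.39% higher and 5.12% lower at p17, and 3.18% and 2.91% at p14. At p14 all 10 missed the limma threshold, with 4 higher (Lama4, Lama5, Lamb1 and Lamb3) and 1 lower (Lama2) at an unadjusted p below 0.05, where 8.86% of all genes were higher and 8.12% lower. Lama4 encodes an alpha chain of endothelial basement membranes. It lay at 302 to 426 normalized reads (median 375) in nOIR p17 and at 1073 to 2450 (median 1425) in OIR p17. All 8 OIR mice were above all 6 controls. OIR thus exceeded nOIR by 2.03 ± 0.16 on the log2 scale, given as log2 fold change ± standard error here and below (adjusted p = 1.77e-10). At p14 it had been 297 to 547 (median 425) in nOIR and 451 to 789 (median 627) in OIR, groups that overlapped (log2 fold change 0.54 ± 0.17, adjusted p = 0.067). The p17 effect exceeded the p14 effect by 1.49 ± 0.24 (adjusted p = 0.000313). Lama4 stood just above the DEG threshold: without nOIR p17 mouse S5 or OIR p17 mouse S1, S2 or S6 its fold change fell to or below 2, at the lowest 1.93, with the adjusted p still below 0.05.

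Lamb1, a beta chain found in many vascular basement membranes, lay at 601 to 844 normalized reads (median 749) in nOIR p17 and at 1168 to 2019 (median 1723) in OIR p17, again without overlap (log2 fold change 1.19 ± 0.13, adjusted p = 7.12e-08). At p14 nOIR mice held 570 to 891 (median 796) and OIR mice 758 to 1412 (median 994), and the change was 0.41 ± 0.14 (adjusted p = 0.088). Its effect was larger at p17 by 0.78 ± 0.19 (adjusted p = 0.029), a call lost without nOIR p14 mouse S1, S6 or S7, nOIR p17 mouse S5 or OIR p14 mouse S1 (adjusted p up to 0.0612), and under 1 of 10 other settings (adjusted p = 0.106). Lamc1, the gamma chain shared by most laminins, went from 661 to 1032 (median 816) in nOIR p17 to 952 to 3370 (median 1712) in OIR p17, with overlap (log2 fold change 1.08 ± 0.25, adjusted p = 0.00263). Lamb2, the other common beta chain, lay at 331 to 617 (median 432) and 551 to 1123 (median 870), also overlapping (0.92 ± 0.22, adjusted p = 0.00326).

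Per kilobase of exon, Lama4 and Lama1 overlapped in their shares of the alpha chains in controls and were apart in OIR mice of both ages. In nOIR p14, the share of Lama1, a chain of the inner limiting membrane, among the 5 alpha chains was 28.3% to 38.6% (median 31.9%) and that of Lama4 29.2% to 47.0% (median 32.9%). In OIR p14, Lama4 made up 35.8% to 56.1% (median 42.9%) and Lama1 15.7% to 28.6% (median 21.4%). In OIR p17, Lama4 made up 52.1% to 69.9% (median 65.8%) and Lama1 10.2% to 13.9% (median 12.5%), while in nOIR p17 the shares were 29.5% to 46.7% (median 37.4%) and 17.1% to 32.0% (median 29.3%). Shares of a whole are tied to each other: the Lama1 level itself was 125 to 299 normalized reads (median 224) in nOIR p17 and 149 to 415 (median 247) in OIR p17, with no call. Among gamma chains, Lamc1 held 76.8% to 88.6% in nOIR p17 and 86.3% to 95.5% in OIR p17, and Lamc3, known from the retina's photoreceptor matrix, made up the rest. Lamb3, of epithelial laminin, stood at or below 21.5 normalized reads in every mouse.

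**Figure D3:**
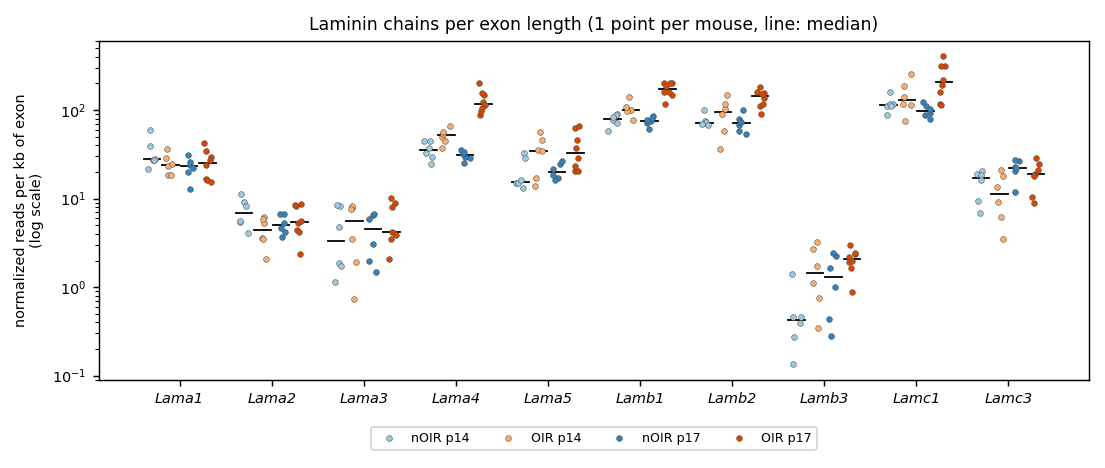
Normalized reads per kilobase of exon (log scale) of the 10 laminin chains, 1 point per mouse and a line at the group median. By medians, Lama4, Lamb1, Lamb2 and Lamc1 stand highest in OIR p17. Only Lama4 and Lamb1 show no overlap between OIR p17 and nOIR p17.

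Of the genes for nidogens and basement membrane proteoglycans, 3 of 4 were higher in OIR p17, all by the DEG rule, and 2 of 4 in OIR p14. Nid1, the major nidogen, lay at 321 to 645 normalized reads (median 540) in nOIR p17 and at 1802 to 3275 (median 2764) in OIR p17. The lowest OIR mouse was above the highest control, and the log2 fold change was 2.32 ± 0.18 (adjusted p = 1.56e-10). At p14 Nid1 read 584 to 730 (median 670) in nOIR and 660 to 1532 (median 774) in OIR, where 4 of 6 OIR mice stayed near the controls and the test made no call (0.49 ± 0.20, adjusted p = 0.171). The effects differed by 1.83 ± 0.27 (adjusted p = 0.000116).

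Nid2, the second nidogen, was called at both ages. Its levels were 177 to 290 (median 268) in nOIR p14 and 277 to 1208 (median 637) in OIR p14, with 1 OIR mouse inside the control range. The log2 fold change was 1.30 ± 0.28 (adjusted p = 0.00308). At p17 it read 72.1 to 248.6 (median 198) in nOIR and 920 to 1441 (median 1238) in OIR, with no overlap and a change of 2.77 ± 0.26 (adjusted p = 3.59e-09). Exons of Rtraf on the opposite strand cover 8.45% of Nid2 exon bases. The larger effect at p17 (difference 1.47 ± 0.38, adjusted p = 0.041) was lost in 15 of 26 fits that left out 1 mouse, with adjusted p up to 0.0823, and under 2 of 10 other settings, with adjusted p up to 0.103.

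Hspg2 encodes perlecan, the heparan sulfate proteoglycan of vessel walls. It lay at 151 to 232 normalized reads (median 195) in nOIR p14 and at 252 to 626 (median 393) in OIR p14, without overlap (log2 fold change 1.05 ± 0.25, adjusted p = 0.0076). At p17 the ranges were 90.3 to 195 (median 153) and 405 to 1050 (median 921), again apart (2.41 ± 0.23, adjusted p = 5.91e-09). The difference between the ages was 1.36 ± 0.34 (adjusted p = 0.033), a call lost in 11 of 26 leave-one-out fits with adjusted p up to 0.069, and under 1 of 10 other settings. Agrn, for agrin, which clusters receptors at basement membranes, was not called: 1899 to 2958 (median 2109) in nOIR p17 and 1863 to 4679 (median 3136) in OIR p17 (0.44 ± 0.21, adjusted p = 0.184).

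**Figure D4:**
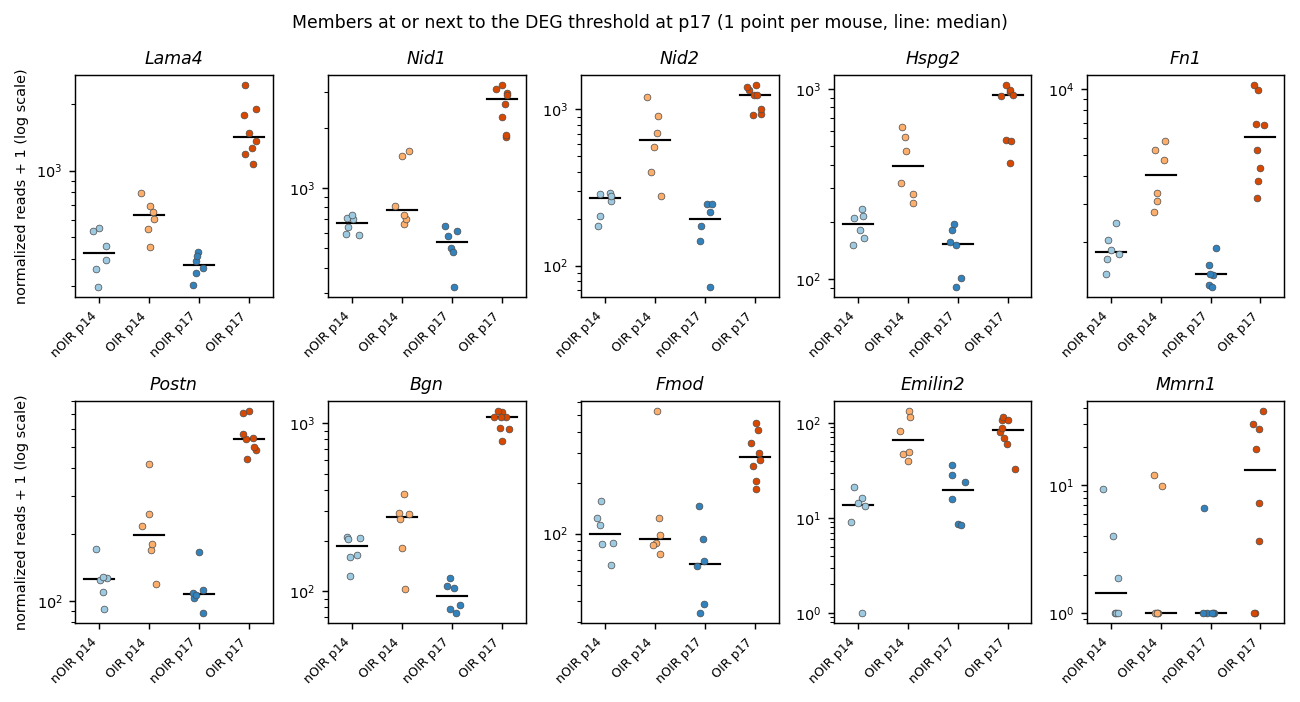
Normalized reads plus 1 (log scale) of the 9 genes upregulated by the DEG rule at p17 and of Fn1, whose log2 fold change rounds to 2.00, 1 point per mouse with a line at the group median. In Lama4, Nid1, Nid2, Hspg2, Fn1, Postn, Bgn and Fmod all OIR p17 mice lie above all nOIR p17 mice, while Emilin2 and Mmrn1 overlap.

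Fibronectin and matricellular genes gave 5 of 7 higher in OIR p17 (Fn1, Postn, Sparc, Thbs1 and Thbs2) and 2 not called, and 2 higher and 1 lower in OIR p14. Sparc, which binds collagen and is secreted by growing vessels, had the highest level per kilobase of all 39 genes in each of the 4 groups. It lay at 17112 to 21240 normalized reads (median 19751) in nOIR p17 and at 28542 to 46827 (median 36773) in OIR p17, without overlap (log2 fold change 0.92 ± 0.11, adjusted p = 2.76e-07). Sparcl1, its close relative and a glial protein, ranked next to it in each group. Its levels were 6482 to 8140 (median 7626) in nOIR p14 and 4322 to 7167 (median 5441) in OIR p14, a fall with overlapping ranges (-0.44 ± 0.10, adjusted p = 0.00334). Summed astrocyte and Mueller glia markers, with 5 of 10 lower and 3 higher, read 65483 to 85074 (median 78661) in nOIR p14 and 58547 to 68813 (median 64557) in OIR p14, and their part in the fall of Sparcl1 was not tested. In p17 retinas it read 8701 to 10001 (median 9142) and 7196 to 10225 (median 8238), with no call (-0.13 ± 0.09, adjusted p = 0.412), and the difference between the ages was not called either (adjusted p = 0.366).

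Fn1, the cell-adhesive glycoprotein of provisional matrix, was higher at both ages. It held 1443 to 2457 normalized reads (median 1803) in nOIR p14 and 2740 to 5776 (median 4056) in OIR p14 (log2 fold change 1.12 ± 0.23, adjusted p = 0.00208). At p17 the ranges were 1256 to 1894 (median 1431) and 3186 to 10459 (median 6068), for a change of 2.00 ± 0.22 (adjusted p = 4.6e-08), just short of the DEG threshold. Neither pair of groups overlapped. Per kilobase, Fn1 had rank 5 of the 39 genes in nOIR p17 and came behind only Sparc and Sparcl1 in OIR p17.

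Postn encodes periostin, a matricellular protein of remodelling tissue. In OIR p17 it lay at 440 to 723 normalized reads (median 541), above the 87.1 to 166 (median 107) of nOIR p17 in every mouse (log2 fold change 2.31 ± 0.20, adjusted p = 6.72e-10). At p14 it read 90.6 to 171 (median 124) and 118 to 416 (median 199), overlapping, with a change of 0.76 ± 0.21 (adjusted p = 0.027). This p14 call was lost without nOIR p14 mouse S6 or S7 or OIR p14 mouse S4, S5 or S6 (adjusted p 0.0535 to 0.0877), and under 3 of 11 other settings (adjusted p up to 0.0999). The effects differed by 1.55 ± 0.29 (adjusted p = 0.00224).

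Thbs2, the antiangiogenic thrombospondin 2, held 29.5 to 111 normalized reads (median 67.2) in nOIR p14 and 20.4 to 94.5 (median 61.4) in OIR p14, largely the same range (log2 fold change -0.23 ± 0.34, adjusted p = 0.833). In nOIR p17 it stood at 18.2 to 60.6 (median 27.0) and in OIR p17 at 73.6 to 145 (median 110), with no overlap (1.88 ± 0.32, adjusted p = 7.48e-05). The effects differed by 2.11 ± 0.47 (adjusted p = 0.012), and the control median was itself 67.2 at p14 and 27.0 at p17. Thbs1, for thrombospondin 1, showed no overlap at p17 either.

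Bgn, for biglycan, a small leucine-rich proteoglycan that binds collagen and growth factors, had the largest change of all 39 genes. Its levels were 123 to 210 normalized reads (median 184) in nOIR p14 and 102 to 380 (median 277) in OIR p14, overlapping groups (log2 fold change 0.41 ± 0.22, adjusted p = 0.345). At p17 nOIR mice held 73.0 to 118 (median 92.3) and OIR mice 779 to 1183 (median 1088). The lowest OIR p17 mouse was above every mouse of the other 3 groups. The p17 change was 3.47 ± 0.20 (adjusted p = 3.48e-13), and it exceeded that at p14 by 3.06 ± 0.30 (adjusted p = 1.25e-07). Leaving out any 1 mouse gave 3.40 to 3.54 for the p17 change. Per kilobase, Bgn moved from rank 24 of 39 in nOIR p17 to rank 9 in OIR p17.

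Fmod, for fibromodulin, a relative that also binds fibrillar collagen, read 32.9 to 145 (median 65.6) in nOIR p17 and 182 to 451 (median 284) in OIR p17, without overlap (log2 fold change 2.14 ± 0.35, adjusted p = 4.35e-05). Without nOIR p17 mouse S4 or S6 the Fmod fold change was below 2, at the lowest 1.95, and still called. In OIR p14 it lay at 75.1 to 530 (median 91.9), where 1 mouse, S4, held the 530 and the next 124. Controls at p14 held 64.0 to 155 (median 99.2), and the p14 change was not called (0.30 ± 0.38, adjusted p = 0.79). The other 3 genes of this group were not called at either age. Vcan, the large hyaluronan-binding proteoglycan versican, lay at 45.7 to 109 (median 63.5) in nOIR p17 and at 28.6 to 121 (median 86.5) in OIR p17. Dcn, for decorin, was low, at 4.25 to 34.2 (median 7.78) and 9.33 to 151 (median 37.5), and its fold change of 1.68 ± 0.68 had an adjusted p of 0.111. Its highest mouse, OIR p17 S7, was also the highest for Lum (33.8) and held 55.8 normalized reads of Kera, a corneal keratocyte gene listed at 0 in 6 of 8 OIR p17 mice. Of the 10 cornea and sclera markers 1 was higher, 1 lower and 8 not called at p17, none was called at p14, and their sums had medians of 1.1 and 0.882 of the control.

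Of the 4 genes lower in OIR p14, 3 encode fibulins or elastin. Among the 4 fibulins, 2 were lower in OIR p14 and 1 in OIR p17, where 2.91% and 5.12% of all genes were lower, and the others were not called. Fbln5, which tethers elastic fibers to cells, lay at 297 to 492 normalized reads (median 394) in nOIR p14 and at 95.8 to 247 (median 148) in OIR p14. All 6 OIR mice were below all 6 controls, for a log2 fold change of -1.42 ± 0.23 (adjusted p = 0.000116). At p17 the levels were 240 to 362 (median 332) and 175 to 425 (median 310), which overlapped fully, with no call (-0.14 ± 0.21, adjusted p = 0.769). The difference between the ages was 1.28 ± 0.31 (adjusted p = 0.028), lost without nOIR p14 mouse S2 or S6, nOIR p17 mouse S1 or OIR p14 mouse S2 or S3 (adjusted p up to 0.0599), and under 2 of 10 other settings (adjusted p up to 0.168).

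Efemp1, for fibulin 3, a protein of the retina and the pigment epithelium, was lower at both ages. Levels were 677 to 1202 (median 1062) in nOIR p14 and 528 to 652 (median 601) in OIR p14, then 990 to 1308 (median 1139) in nOIR p17 and 504 to 915 (median 791) in OIR p17. Groups did not overlap at p14 or at p17. Log2 fold changes were -0.76 ± 0.13 (adjusted p = 0.00042) and -0.63 ± 0.13 (adjusted p = 0.000545). Summed pigment epithelium markers overlapped between OIR and nOIR at both ages, with medians at 0.843 and 0.841 of the control.

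Fbln1 and Fbln2, both found in vessel walls, were not called: Fbln1 lay at 27.0 to 95.1 (median 42.2) in nOIR p17 and 51.6 to 117 (median 89.1) in OIR p17, and Fbln2 at 22.7 to 101 (median 57.0) and 45.7 to 127 (median 101). Eln, for elastin, the core of elastic fibers, was the only gene of 5 called in its group. It fell from 802 to 1224 normalized reads (median 934) in nOIR p14 to 256 to 789 (median 570) in OIR p14, without overlap (log2 fold change -0.87 ± 0.20, adjusted p = 0.00697). At p17 it lay at 728 to 1052 (median 813) and 369 to 881 (median 539), where 1 OIR mouse reached into the control range (-0.63 ± 0.19, adjusted p = 0.026). That p17 call was lost without nOIR p17 mouse S5 or S6 or OIR p17 mouse S2 or S4, with adjusted p 0.0504 to 0.0728, and with equal library totals.

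Fbn1, for fibrillin 1, the main microfibril protein, lay at 170 to 290 (median 204) in nOIR p17 and 199 to 472 (median 313) in OIR p17, and Ltbp1, which anchors latent TGF-beta, at 146 to 379 (median 248.5) and 123 to 398 (median 203). Neither was called. Exons of Gm9913 on the opposite strand cover 20.1% of Fbn1 exon bases, and the library kit keeps no strand.

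**Figure D5:**
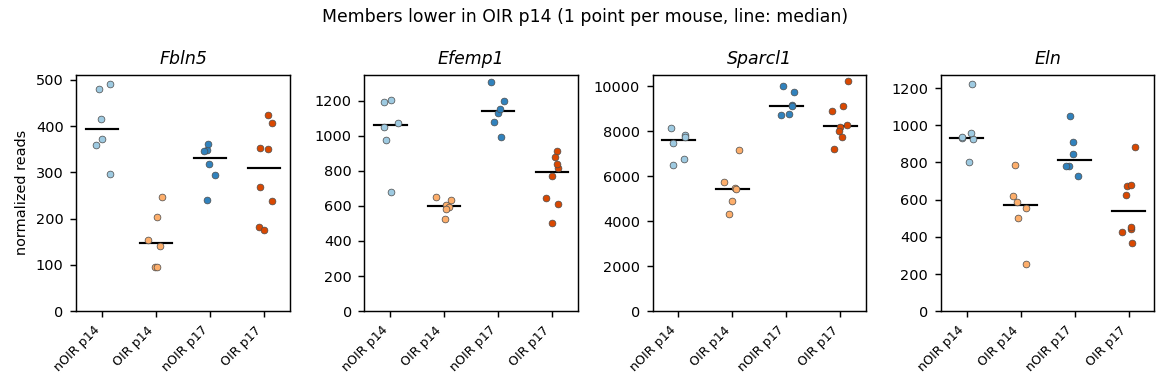
Normalized reads of the 4 genes lower in OIR p14, 1 point per mouse with a line at the group median and axes starting at 0. Fbln5, Efemp1 and Eln show no overlap between nOIR p14 and OIR p14, while Sparcl1 overlaps. At p17 Fbln5, Eln and Sparcl1 overlap, and Efemp1 does not.

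EMILINs and multimerins, a family of elastic fiber and vessel wall glycoproteins, were called higher in OIR p17 in 4 of 4 genes and in OIR p14 in 2 of 4. Emilin1, of elastic fibers and lymphatic walls, read 127 to 248 (median 173) in nOIR p14 and 224 to 375 (median 286) in OIR p14, with overlap (log2 fold change 0.73 ± 0.17, adjusted p = 0.00568). At p17 it read 95.9 to 159.5 (median 135) and 333 to 488 (median 376), without overlap (1.60 ± 0.16, adjusted p = 8.03e-09). The difference of 0.87 ± 0.23 (adjusted p = 0.048) was lost in 19 of 26 leave-one-out fits, with adjusted p up to 0.102, and under 5 of 10 other settings.

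Emilin2 was the gene already upregulated by the DEG rule at p14. Levels were 0 to 20.1 (median 12.7) in nOIR p14 and 38.7 to 132 (median 65.1) in OIR p14, without overlap (log2 fold change 2.93 ± 0.54, adjusted p = 0.000579). At p17 they were 7.44 to 34.6 (median 18.8) and 31.3 to 114 (median 82.6), where the lowest OIR mouse lay inside the control range (2.15 ± 0.50, adjusted p = 0.00296). That p17 call was lost with a pseudocount of 0.1 (adjusted p = 0.0533). Without nOIR p17 mouse S4 or S6 the p17 fold change was below 2, at the lowest 1.94, and still called. Mmrn1, the platelet and endothelial multimerin, was close to the limit of detection: listed at 0 in 5 of 6 nOIR p17 and in 2 of 8 OIR p17 mice, it reached 5.67 and 37.2 (median 12.3) in the highest mice. Its fitted change of 2.54 ± 0.85 (adjusted p = 0.047) was lost in 14 of 26 leave-one-out fits, with adjusted p up to 0.0942, and under 6 of 10 other settings, with adjusted p up to 0.127 and a fold change of 2.44 to 4.41. Mmrn2, an endothelial matrix protein, was well detected, at 67.3 to 202 (median 141) in nOIR p17 and 228 to 473 (median 381) in OIR p17, without overlap (1.49 ± 0.21, adjusted p = 3.52e-06). At p14 its levels of 131 to 209.5 (median 166) and 129 to 300 (median 196) overlapped (0.25 ± 0.22, adjusted p = 0.656), and the effects differed by 1.24 ± 0.30 (adjusted p = 0.027), a call lost without nOIR p14 mouse S1, nOIR p17 mouse S1 or S2 or OIR p14 mouse S2 (adjusted p up to 0.0563), and under 1 of 10 other settings (adjusted p = 0.156).

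Age alone was compared within nOIR and within OIR mice, which shares mice with the contrasts above. Between nOIR p14 and nOIR p17, limma called 0 of the 39 genes higher and 0 lower, where 0.158% of all genes were called in each direction and 0.0111% in each direction by the DEG rule. At an unadjusted p below 0.05, 2 were higher (Lamb3 and Sparcl1) and 5 lower (Lama1, Thbs1, Thbs2, Bgn and Emilin1), against 3.4% and 3.96% of all genes. EdgeR and DESeq2 each called 0 higher and 1 lower. Bgn came nearest by limma, at -0.92 ± 0.22 (adjusted p = 0.058). Groups did not overlap for Sparcl1, higher at p17, and for Bgn and Thbs1, lower at p17, against 0.814% and 0.674% of all genes. In OIR mice, 13 genes were higher at p17 than at p14 (Lama4, Lamb1, Nid1, Nid2, Hspg2, Postn, Sparc, Sparcl1, Thbs2, Bgn, Fmod, Fbln5 and Mmrn2) and 0 lower, against 4.11% and 1.81% of all genes. At an unadjusted p below 0.05, 22 were higher and 1, Tnc, lower, against 9.72% and 8.56% of all genes, and edgeR and DESeq2 also called 0 lower. Bgn met the DEG rule with 2.14 ± 0.20, as 0.45% of all genes did upwards and 0.133% downwards. Without OIR p14 mouse S2 its fold change was 1.90, still called. The calls of Fmod and Thbs2 were each lost under 6 of 11 other settings, and in 9 and 8 of 26 leave-one-out fits. In Lama4, Nid1, Postn, Sparcl1 and Bgn all OIR p17 mice were above all OIR p14 mice, against 1.41% of all genes (0.387% in the other direction).

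The 17 genes called at neither age were Lama1, Lama2, Lama3, Lama5, Lamb3, Lamc3, Agrn, Tnc, Dcn, Lum, Vcan, Fbln1, Fbln2, Fbn1, Fbn2, Ltbp1 and Ltbp2. Their log2 fold changes ran from -0.73 to 1.342 at p14 and from -0.27 to 2.36 at p17, with 15 of 17 above 0 at p17. Among them are genes too low to be read closely, such as Lum, for lumican, at 0 to 33.8 normalized reads.

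Lists of related genes were counted beside the 39 at p17, where 7.39% of all genes were higher and 5.12% lower. Of 7 laminin receptors, 5 were higher in OIR p17 and 2 not called. Itgb1, the beta subunit of most laminin-binding integrins, lay at 2480 to 3266 normalized reads (median 2653) in nOIR p17 and 4814 to 6644 (median 6227) in OIR p17 (log2 fold change 1.11 ± 0.10, adjusted p = 3.01e-09). Itga6, its partner subunit, changed by 1.21 ± 0.24 (adjusted p = 0.000629) and Bcam, a laminin alpha 5 receptor, by 0.67 ± 0.12 (adjusted p = 0.000191). Of 36 further matrix glycoproteins, 9 were higher and 3 lower. Mgp, the calcification inhibitor matrix Gla protein, rose by 2.76 ± 0.19 (adjusted p = 1.13e-11), Tgfbi by 3.30 ± 0.32 (adjusted p = 8.59e-09) and Ecm1 by 1.74 ± 0.14 (adjusted p = 2.21e-10). Npnt, Frem1 and Spon1 were lower, at -0.50 ± 0.09, -0.95 ± 0.20 and -0.37 ± 0.08.

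Of 22 further proteoglycans and link proteins, 9 were higher and 2 lower in OIR p17. Esm1, the proteoglycan endocan of endothelial tip cells, lay at 0 to 6.62 normalized reads (median 1.39) in nOIR p17 and at 278 to 753 (median 597) in OIR p17, the groups far apart (7.85 ± 0.51, adjusted p = 2.41e-12). Cspg4, the pericyte proteoglycan NG2, which is also in the mural marker list, rose by 2.29 ± 0.25 (adjusted p = 7.01e-08) and Sdc4, a syndecan, by 0.67 ± 0.10 (adjusted p = 8.13e-06). Cspg5 and Hapln1, of neural matrix, were lower, at -0.93 ± 0.27 and -0.68 ± 0.21. Of 11 genes of retinal and neural matrix, 4 were lower and 7 not called. Nyx, for nyctalopin of bipolar cells, changed by -0.91 ± 0.26 (adjusted p = 0.018) and Reln, for reelin, by -0.75 ± 0.22 (adjusted p = 0.022). The summed retinal neuron markers stood at 0.843 of the control by medians, with 5 of 12 markers lower.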

How the data were processed

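Retinal RNA of 27 mice was amplified with a kit for very low input (SMARTer Ultra Low Input v4), which keeps no strand, and sequenced as single reads. The authors checked reads with FastQC 0.73, aligned them with STAR 2.7.8a to the mouse genome with Gencode annotation, counted reads per gene with featureCounts 2.0.1 and normalized them in R 4.0.3 with DESeq2 1.34, per their methods and processing notes. The deposited signal is therefore a read count divided by 1 size factor per mouse. Whole reads were recovered for 100% of values (tolerance 1e-06), and the library totals are of these counts. The table also holds the authors' group means, fold changes and adjusted p-values, which were not used.

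The 27137 genes averaging 1 normalized read or more over the mice were tested on log2(value + 1), so fold changes understate those of low genes. Limma 3.58.1 (R 4.3.3, trended empirical Bayes) fitted 4 groups of 26 mice at once, with Benjamini-Hochberg adjustment over all 27137 genes and p-values for 2-sided tests. Errors of fold changes are standard errors. Alternatives were a pseudocount of 0.1, no filter, a mean of at least 10, mouse S4 of nOIR p14 included, the mouse number as a block, equal totals, quantile normalization, edgeR 4.0.16 and DESeq2 1.42.0 on recovered reads, log2 Cryaa as covariate, the compared groups alone, and leaving out each mouse. On simulated data with 200 changed genes the limma fit recovered 47% of 2-fold and 100% of 8-fold changes at p14, and 53% and 100% at p17. False calls there were 10 of 157 calls at p14 and 15 of 168 at p17. Simulated data without changed genes gave 0 calls at either age. The changed genes all had a mean of at least 10 and were raised alike at both ages. Simulated mice were independent, with 1 setting of the spread for all genes. The recovery figures therefore do not cover lower genes, decreases or likeness within litters. Tables were handled in Python 3.11.15 with pandas 2.3.3 and numpy 2.4.6.

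The 39 genes, the lists and the tests were chosen with earlier results of these data known. Genes given with full values met the DEG rule, were lower in OIR, or differed in effect between ages; of the others, up to 2 per role with the highest mean, and from each further list up to 3 genes per direction with the smallest adjusted p at p17. A gene that this rule would name in the list of retinal and neural matrix is not reported here. Exon lengths and overlaps came from Gencode annotation of GRCm38 and may differ from the authors' release. No 2 libraries were alike within sampling noise (lowest chi-square per degree of freedom 9.394 over 79 pairs of a group).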

Additional observations from a re-analysis of the deposited data

Results flagged for a closer look

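Single mice stood far from the rest of their group in 15 of the 156 combinations of gene and group. Chance alone would flag about 1 in 20 only if the values were independent and did not pile up at the detection limit. The combinations share mice, and the flags of Lum and Mmrn1 in nOIR p17 rest on 1 mouse with reads among mice without. The count of 15 can therefore not be read as more than chance. Mouse S4 of OIR p14 was the highest of its group in 4 of the 15 combinations. It had 530 normalized reads of Fmod (next 124), 612 of Fbln1 (next 87.0), 783 of Ltbp1 (next 341) and 184 of Ltbp2 (next 12.6). The same mouse had the highest summed endothelial (13083), mural (5923), fibroblast (2819), macrophage and microglia (2235) and cornea and sclera (1296) markers of OIR p14, whose part in these values was not tested. Without it, 5 genes were called higher at p14.

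Among controls, nOIR p14 mouse S1 was high for Lamb2 (618) and low for Efemp1 (677), nOIR p14 mouse S7 was low for Emilin2 (0) and Fbn2 (48.1), and nOIR p14 mouse S5 was low for Ltbp2 (0). In nOIR p17, mouse S4 was low for Lamc3 (72.8), S1 low for Thbs1 (125), S5 the only mouse with Lum reads (8.35) and S2 the only mouse with Mmrn1 reads (5.67). In OIR p17, mouse S8 was low for Vcan (28.6) and S4 low for Mmrn2 (228).

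The OIR effect differed between p17 and p14 for 11 genes, by limma's test of the difference, in every case with the higher value at p17. The log2 differences were 3.06 for Bgn, 2.11 for Thbs2, 1.83 for Nid1, 1.55 for Postn, 1.49 for Lama4, 1.47 for Nid2, 1.36 for Hspg2, 1.28 for Fbln5, 1.24 for Mmrn2, 0.87 for Emilin1 and 0.78 for Lamb1. For Fbln5 the larger value at p17 goes with a lower level in OIR at p14, while the other 10 were higher in OIR p17.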

How the results depend on the processing

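No call reversed. Of 54 called fold changes of single genes, 40 kept their call under every other setting and 42 in every fit that left out 1 mouse. Higher calls at p14 went from 6 to 12 with DESeq2, and ranged from 5 to 8 with 1 mouse left out. Lower calls at p17 went from 2 to 1 with equal totals (Eln lost) and ranged from 1 to 2 with 1 mouse left out. Genes with a different effect at p17 went from 11 to 6 without OIR p14 mouse S2, to 7 without nOIR p14 mouse S6, nOIR p17 mouse S1 or OIR p14 mouse S3, and up to 12 at most. Lower calls between nOIR ages went from 0 to 1 with a mean of at least 10, with mouse S4 included, with equal totals, with edgeR, with DESeq2, with the Cryaa covariate and with the compared groups alone (leave-one-out 0 to 1, with 1 without nOIR p14 mouse S2 or OIR p14 mouse S1 or S2), and higher calls went to 1 with the compared groups alone. The 1 DEG between OIR ages, Bgn, went to 0 without OIR p14 mouse S2 (leave-one-out 0 to 1). At p17 the fold changes of Fmod and Emilin2 were below 2 without nOIR p17 mouse S4 or S6, at the lowest 1.95 and 1.94, and still called. DEG calls at p17 ranged from 7 to 11 over settings and from 6 to 10 with 1 mouse left out. Of the calls between OIR ages, that of Fmod was lost in 9, that of Thbs2 in 8 and that of Nid2 in 2 of the 26 fits, and under 11 other settings Fmod and Thbs2 lost theirs in 6 each, Sparc in 2 and Nid2 in 1. With a pseudocount of 0.1, Emilin2 at p17 had adjusted p = 0.0533. Equal totals moved the split over all genes from 862 higher and 790 lower to 1019 and 609 at p14, and from 2005 and 1390 to 2406 and 964 at p17. The causes were not tested.

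With the mouse number as a replicate block, effect differences went from 11 to 7 (Lamb1, Fbln5, Emilin1 and Mmrn2 lost), and no other count changed by over 1.5 times. The numbers did not pair the mice: 4 of 34 same-numbered pairs correlated above 0.1 (range -0.108 to 0.161). Depth limits Lum, Mmrn1, Dcn, Lamb3 and Ltbp2, which had few reads.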
